A study of Mus musculus with 8 samples.

Results

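The core genes of the circadian clock were followed in mouse 3T3-L1 preadipocytes, a fibroblast line that turns into fat cells when induced. The 10 genes were Arntl, Per1, Per2, Per3, Cry1, Cry2, Nr1d1, Nr1d2, Dbp and Tef. They were found by matching the RefSeq accession of each array probe to a gene symbol, which gave 11 probes, 1 for each gene and a second for Dbp. All 10 are among the 26460 genes and unnamed transcripts kept, of which 17549 are named. Probes had to be well above background on 2 or more of the 8 arrays to be kept. For 9 of the 10 genes the signal was well above background on all 8 arrays, and Per3 passed only through 3 sh8 arrays.

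The sh8 cells were 3T3-L1 preadipocytes carrying a stably transfected short hairpin RNA, number 8, directed at the long noncoding RNA slincRAD. The WT cells were unmodified 3T3-L1 preadipocytes. Each line was sampled on day -2, on day 0, when the cells were confluent, and on days +2 and +4, after the medium was changed to one with 0.5 mM IBMX (a phosphodiesterase inhibitor that raises cAMP), 1 µM dexamethasone (a glucocorticoid) and 167 nM insulin. There was 1 one-colour Agilent array for each line and day. A line with a control hairpin was not analysed here, nor was the level of slincRAD, so the hairpin and any other difference between the lines cannot be told apart. Whether sh8 is a single clone, whether arrays came from separate cultures and the hour of harvest are not given in the sources used here. The p-values therefore rest on these arrays only, and samples taken on separate days do not show a daily rhythm. Each day was its own term in the main fits. The standard errors and p-values of changes after induction therefore leave out the spread between days that both lines share.

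Levels are given as log2 processed intensity relative to the 75th percentile of the same array, which is at 0, and the level of 1 probe is not set against that of another. Between 64.9% and 81.7% of probes were well above background on an array, and the lowest signal called so lay between -6.66 and -5.37. All 7 fibroblast markers were well above background on every array, with the log2 of their summed signal between 8.96 and 9.34 in sh8 cells and between 8.69 and 9.11 in WT cells. The 4 arrays of days +2 and +4 were read in one scan and the 4 of days -2 and 0 in another, so the effect of induction and that of the scan cannot be told apart. All 4 lung epithelium markers looked for (Sftpc, Sftpb, Scgb1a1 and Sftpa1) were higher on the arrays of days +2 and +4. The log2 of their summed signal was 3.21 and 3.27 in sh8 cells on days +2 and +4, against -2.57 and -2.56 on days -2 and 0. In WT cells it was 2.72 and 3.14 on days +2 and +4, against -2.93 and -2.90 on days -2 and 0. Sftpc was not well above background on any array of days -2 and 0, and the part of this signal in the changes after induction was not tested. In bulk RNA, fewer cells of a type and less RNA per cell cannot be told apart.

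As background, the clock is a feedback loop of transcription. BMAL1, the product of Arntl, pairs with CLOCK and activates genes with E-box elements, among them the Per and Cry genes, whose proteins enter the nucleus and repress BMAL1 and CLOCK. The same pair drives Nr1d1 and Nr1d2, which encode the repressors REV-ERBα and REV-ERBβ that compete with ROR activators for elements in the Arntl gene, and Dbp and Tef, which encode activators of D-box genes. In cultured fibroblasts and preadipocytes, serum and glucocorticoids set the phase of this loop, Per1 being directly induced by glucocorticoids and by cAMP, and REV-ERBα is known for its part in fat cell differentiation.

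The promoters of 9 of the 10 genes were found in RefSeq's GRCm38.p6 tables, in 12 windows that run from 250 bases before to 50 bases after a gene start. The E-box (CACGTG, read on both strands, as were all motifs) was in 4 of these windows and in 7.15% of all 32851 windows. The E-prime box (CACGTT) was in 3 of the 12 and in 4.68% of all windows, the D-box (TTANGTAA) in 1 and in 2.32%, the ROR element (TAGGTCA) in 1 and in 2.61%, and the cAMP element (TGACGNCA) in none and in 3.21%. No motif here overlapped another. A match of letters is a description and not a site of binding. The 4 windows below are shown because their genes differ in the results that follow: Per1 rose in both lines, Nr1d1 moved in opposite directions in the 2 lines, Cry1 fell in sh8 cells, and Per3 has the D-boxes. Capitals mark the E-box of Per1 at -166 and of Cry1 at -60, the E-prime box, on the opposite strand, of Cry1 at -79 and of Nr1d1 at -28, and the pair of D-boxes of Per3 at -205 and -158, counted from the gene start. The windows lie at chr11:69098699-69098998 on the plus strand for Per1 and, on the minus strand, at chr10:85185005-85185304 for Cry1, chr11:98775328-98775627 for Nr1d1 and chr4:151044616-151044915 for Per3.
Per1: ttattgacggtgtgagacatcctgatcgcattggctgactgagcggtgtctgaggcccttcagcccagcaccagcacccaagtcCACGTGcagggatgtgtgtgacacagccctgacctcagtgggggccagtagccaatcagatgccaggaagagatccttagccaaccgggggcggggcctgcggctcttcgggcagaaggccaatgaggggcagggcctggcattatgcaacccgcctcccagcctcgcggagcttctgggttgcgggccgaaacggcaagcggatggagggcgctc
Cry1: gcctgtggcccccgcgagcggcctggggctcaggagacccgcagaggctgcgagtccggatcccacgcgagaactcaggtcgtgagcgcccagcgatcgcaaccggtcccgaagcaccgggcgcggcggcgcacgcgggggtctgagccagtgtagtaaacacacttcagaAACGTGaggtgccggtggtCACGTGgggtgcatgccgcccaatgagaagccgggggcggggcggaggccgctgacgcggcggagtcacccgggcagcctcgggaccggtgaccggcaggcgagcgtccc
Nr1d1: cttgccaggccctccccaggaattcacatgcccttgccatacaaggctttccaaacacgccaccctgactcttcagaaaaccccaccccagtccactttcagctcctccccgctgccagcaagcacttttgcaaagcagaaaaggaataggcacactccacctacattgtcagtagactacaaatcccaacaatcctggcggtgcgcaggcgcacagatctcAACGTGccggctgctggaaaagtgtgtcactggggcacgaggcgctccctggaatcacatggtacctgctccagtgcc
Per3: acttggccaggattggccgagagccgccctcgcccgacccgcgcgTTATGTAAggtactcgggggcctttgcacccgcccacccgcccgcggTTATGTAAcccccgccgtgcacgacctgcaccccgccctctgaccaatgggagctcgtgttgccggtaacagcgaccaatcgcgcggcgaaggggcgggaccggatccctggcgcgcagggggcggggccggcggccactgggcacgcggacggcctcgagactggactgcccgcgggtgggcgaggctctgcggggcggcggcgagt
The other matches were an E-box in both Tef windows, an E-prime box in Cry2 and the ROR element in 1 of 2 Arntl windows. The second Per1 window, at chr11:69099902-69100201, the other Arntl window and those of Dbp and Nr1d2 held none of the motifs.

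Nr1d1, Dbp and Cry1 differed 2-fold or more between sh8 and WT cells on both days after induction and on neither day before it. In sh8 cells Per1 and Nr1d1 rose after induction and Cry1 fell. In WT cells Nr1d1, Nr1d2 and Dbp fell while Arntl and Per1 rose. Per2 was higher in sh8 cells on each of the 4 days. The values are given gene by gene, in the order of their roles in the loop, and the plot of all levels by array shows them together.

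**Figure D1:**
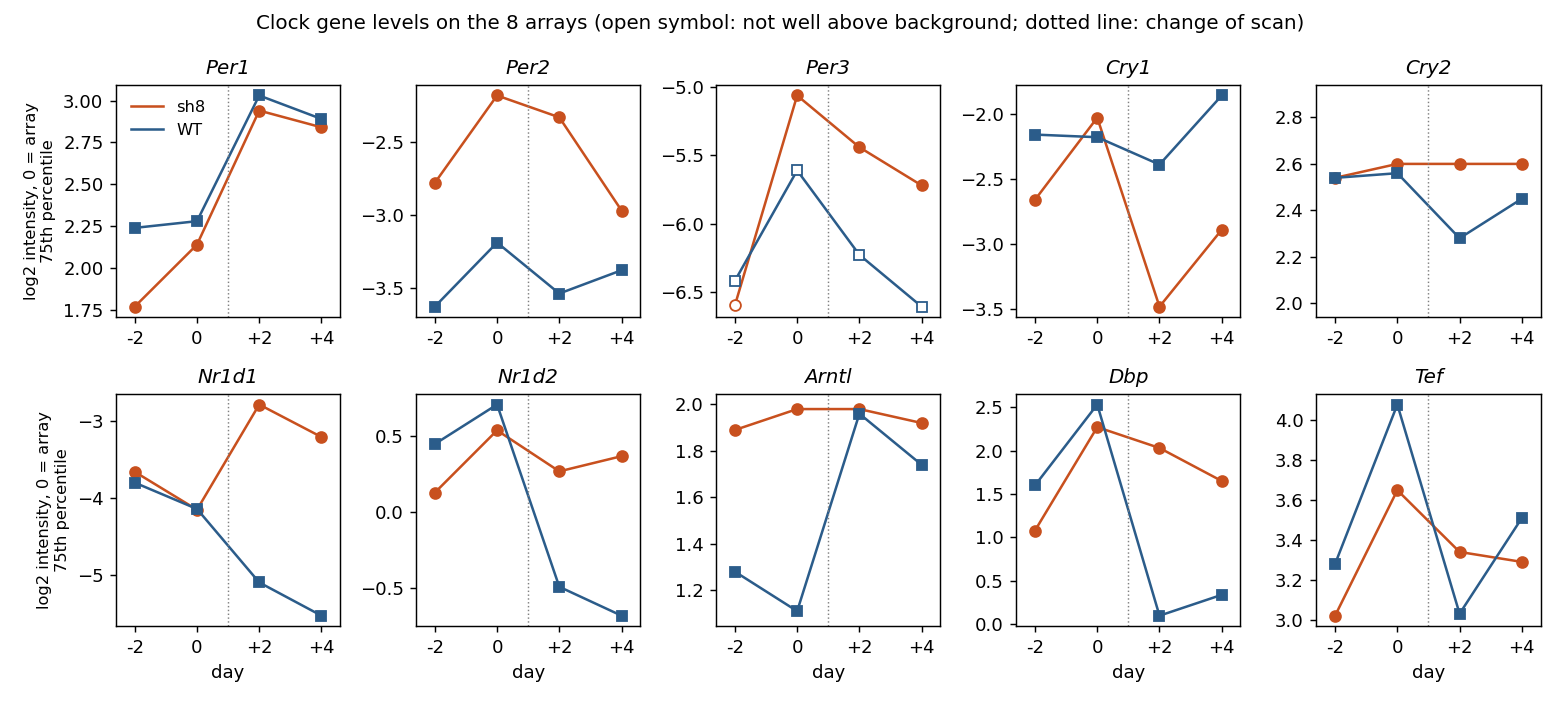
Level of each clock gene on each array, as log2 intensity relative to the array's 75th percentile, against day, for sh8 and WT, with 1 array for each point. Nr1d1, Nr1d2 and Dbp lie higher in sh8 than in WT on days +2 and +4, and Per2 on all 4 days.

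Arntl, the activator of the loop, stood at 1.89 on day -2, 1.98 on day 0, 1.98 on day +2 and 1.92 on day +4 in sh8 cells, and at 1.28, 1.11, 1.96 and 1.74 on the same days in WT cells. The sh8 levels lay within a narrow band, and the WT levels were lower before induction than after it. The difference of sh8 minus WT over the 4 days was 0.42 ± 0.17 (log2, SE) and did not pass the test (limma, adjusted p = 0.131). After induction Arntl differed by 0.018 ± 0.12 in sh8 cells (limma, adjusted p = 0.921). In WT cells it rose by 0.66 ± 0.12, or 1.58-fold (limma, adjusted p = 0.0321), a call that was lost with any 1 day left out.

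Per1, Per2 and Per3 encode the PER repressors. Per1 stood at 1.77, 2.14, 2.94 and 2.84 on days -2, 0, +2 and +4 in sh8 cells and at 2.24, 2.28, 3.03 and 2.89 in WT cells. All 4 arrays after induction were above all 4 before it. The 2 periods did not overlap, in either direction, for 23.8% of all genes and transcripts. Over both lines Per1 rose by 0.82 ± 0.11, or 1.76-fold (limma, adjusted p = 0.00731), and the call held when any 1 day was left out. It was the only 1 of the 10 clock genes to pass in this comparison, where 36.3% of all genes and transcripts passed, 26.8% as higher and 9.54% as lower. The rise was 0.94 ± 0.13 in sh8 cells (limma, adjusted p = 0.0207) and 0.70 ± 0.13 in WT cells (limma, adjusted p = 0.0302), both calls being lost without day -2 (adjusted p = 0.0759 and 0.068) and that in WT cells also without day 0 (0.0585), and the difference between these rises, 0.23 ± 0.18, did not pass (limma, adjusted p = 0.513). From day 0 to day +2 alone, Per1 rose by 0.78 ± 0.16 (limma, adjusted p = 0.0436), again as 1 of 10 clock genes against 11.9% of all, 9% as higher and 2.89% as lower. This call on neighbouring days was lost with quantile scaling (adjusted p = 0.0636).

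Per2 stood at -2.78, -2.18, -2.33 and -2.97 on days -2, 0, +2 and +4 in sh8 cells and at -3.63, -3.19, -3.54 and -3.38 in WT cells. Every sh8 array was above every WT array, and the lines did not overlap for 17.3% of all genes and transcripts. Over the 4 days Per2 was higher in sh8 cells by 0.87 ± 0.16, or 1.83-fold (limma, adjusted p = 0.0237). It was the only 1 of the 10 clock genes to pass in the comparison of sh8 with WT, in which 27% of all genes and transcripts passed, 16.8% as higher in sh8 and 10.3% as lower. The difference was 0.81 on days +2 and +4 and 0.94 on days -2 and 0, so it was of like size within each scan. With any 1 day left out it lay between 0.76 and 1.03 and no longer passed (limma, adjusted p from 0.0585 to 0.0884). Without day +2 or without day +4, none of the genes and transcripts passed for sh8 minus WT, so each call in this comparison depends on both of these days.

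Per3 was dim. Its level was -6.60, -5.06, -5.44 and -5.72 on days -2, 0, +2 and +4 in sh8 cells and -6.42, -5.61, -6.23 and -6.61 in WT cells. It was well above background on days 0, +2 and +4 in sh8 cells and on no array of WT cells, so no WT level, nor that of sh8 on day -2, is more than a bound. The measured means were -5.71 in sh8 and -6.22 in WT. The measured difference of 0.51 ± 0.21 did not pass (limma, adjusted p = 0.125).

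Cry1 and Cry2 encode the cryptochrome partners of the PER proteins. Cry1 stood at -2.66, -2.03, -3.48 and -2.89 on days -2, 0, +2 and +4 in sh8 cells and at -2.16, -2.18, -2.39 and -1.86 in WT cells. The sh8 levels after induction were below all other Cry1 levels. In sh8 cells Cry1 fell by 0.85 ± 0.19 after induction, or 1.80-fold (limma, adjusted p = 0.0468), a call lost without the filter on dim probes (adjusted p = 0.0649) and without day 0. In WT cells the difference was 0.043 ± 0.19 (limma, adjusted p = 0.875). Cry2 hardly varied, at 2.54, 2.60, 2.60 and 2.60 on the 4 days in sh8 cells and at 2.54, 2.56, 2.28 and 2.45 in WT cells. Its difference of sh8 minus WT was 0.13 ± 0.10 (limma, adjusted p = 0.378).

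Nr1d1, which encodes REV-ERBα, differed most between the lines after induction among the 10 genes. It stood at -3.66, -4.15, -2.79 and -3.21 on days -2, 0, +2 and +4 in sh8 cells and at -3.80, -4.14, -5.09 and -5.52 in WT cells. The lines lay close together before induction, and afterwards each sh8 array was above, and each WT array below, every earlier array. Both sh8 arrays after induction above both sh8 arrays before it, with both WT arrays below theirs, were seen for 1.78% of all genes and transcripts. Nr1d1 rose by 0.91 ± 0.10 after induction in sh8 cells, or 1.88-fold (limma, adjusted p = 0.0164). It fell by 1.33 ± 0.10 in WT cells, or 2.52-fold (limma, adjusted p = 0.0095). On days +2 and +4 the sh8 level was 4.95-fold that of WT, and on days -2 and 0 it was 1.05-fold. Over all 4 days the difference of 1.19 ± 0.51 did not pass (limma, adjusted p = 0.142).

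Nr1d1 was dim, and its WT levels after induction lay above the lowest signal called well above background on those arrays, which was -6.23 on day +2 and -6.66 on day +4. With background corrected by the normexp method, the change was 0.60 in sh8 cells and -0.36 in WT cells, both still past the threshold (limma, adjusted p = 0.00524 and 0.0232). The call in sh8 cells was lost without day 0 (adjusted p = 0.0567).

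Nr1d2, which encodes REV-ERBβ, stood at 0.13, 0.54, 0.27 and 0.37 on days -2, 0, +2 and +4 in sh8 cells and at 0.45, 0.71, -0.49 and -0.68 in WT cells. The WT levels after induction were the lowest. After induction Nr1d2 differed by -0.015 ± 0.13 in sh8 cells (limma, adjusted p = 0.936). In WT cells it fell by 1.16 ± 0.13, or 2.24-fold (limma, adjusted p = 0.0136). The sh8 minus WT difference was 0.90 on days +2 and +4 and -0.25 on days -2 and 0.

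Dbp and Tef encode bZIP activators through which the clock acts on other genes. Dbp stood at 1.08, 2.27, 2.03 and 1.65 on days -2, 0, +2 and +4 in sh8 cells and at 1.60, 2.53, 0.10 and 0.34 in WT cells. Both lines were higher at confluence than on day -2, and only the WT arrays after induction were near 0. After induction Dbp differed by 0.17 ± 0.20 in sh8 cells (limma, adjusted p = 0.535). In WT cells it fell by 1.85 ± 0.20, or 3.60-fold (limma, adjusted p = 0.0131), a call lost without day 0 (adjusted p = 0.0506). The second Dbp probe behaved alike, at 0.66, 1.93, 1.80 and 1.38 in sh8 cells and at 1.39, 2.30, -0.33 and 0.017 in WT cells. Tef stood at 3.02, 3.65, 3.34 and 3.29 in sh8 cells and at 3.28, 4.08, 3.03 and 3.51 in WT cells, highest on day 0 in both lines. Its difference of sh8 minus WT was -0.15 ± 0.15 (limma, adjusted p = 0.474).

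Within sh8 cells 2 of the 10 clock genes rose and 1 fell after induction, where 29.5% of all genes and transcripts passed, 21.3% as higher and 8.19% as lower. Within WT cells 2 rose and 3 fell, where 30.8% passed, 20.5% as higher and 10.2% as lower. Only Per1 and Nr1d1 passed in both lines, and Nr1d1 had opposite signs. The median change of the 10 genes was 0.026 in sh8 cells and -0.30 in WT cells, beside 0.18 for all genes and transcripts in either line. Each of these estimates rests on 2 arrays after and 2 before induction, and the lines share 1 estimate of the spread for each gene. Without day +2 or without day +4, none of the genes and transcripts passed within either line.

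**Figure D2:**
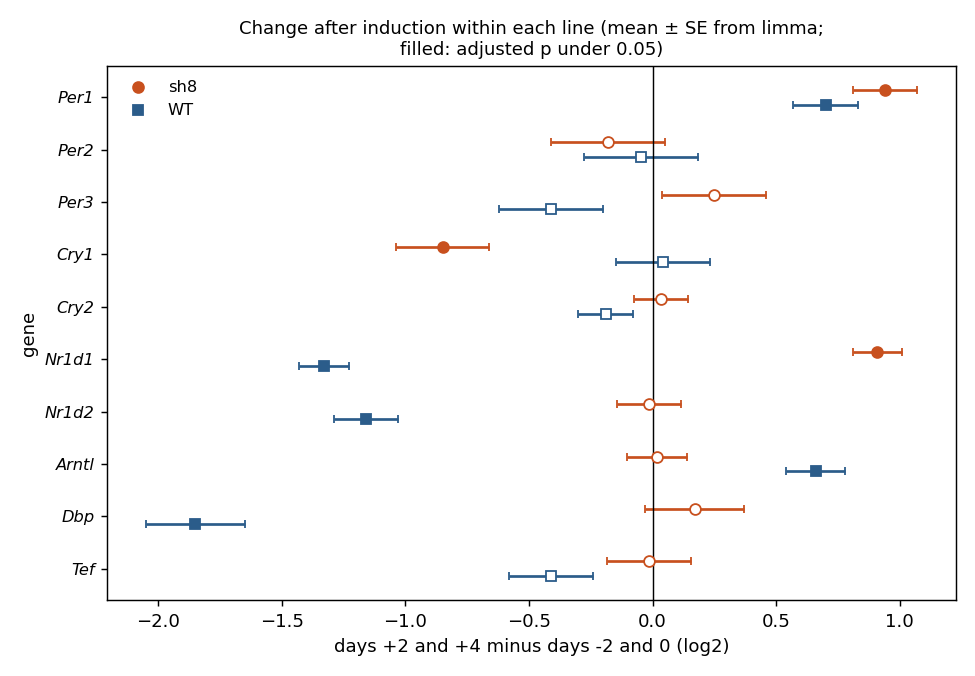
Change after induction (mean of days +2 and +4 minus mean of days -2 and 0, log2) of each clock gene in sh8 and in WT, with the standard error from limma. Nr1d1 lies above 0 in sh8 and below 0 in WT, Nr1d2 and Dbp lie near 0 in sh8 and below it in WT, and Per1 lies above 0 in both.

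Whether the change after induction differed between the lines was tested directly, with the product of line and induced period in the model. None of the 26460 genes and transcripts passed (limma, 0% called), while 5268 of them (19.9%) and 5 of the 10 clock genes were under 0.05 before adjustment. For Nr1d1 the change in sh8 minus that in WT was 2.24 ± 0.15, or 4.74-fold (limma, adjusted p = 0.121). For Dbp it was 2.02 ± 0.28 (limma, adjusted p = 0.122), and for Nr1d2 it was 1.15 ± 0.18 (limma, adjusted p = 0.129). The others under 0.05 before adjustment were Cry1 at -0.89 ± 0.27 (limma, adjusted p = 0.218) and Arntl at -0.64 ± 0.17 (limma, adjusted p = 0.197). The fit leaves 2 residual degrees of freedom. Where only probes well above background on all 8 arrays were tested, Nr1d1, Dbp and Nr1d2 passed (limma, adjusted p = 0.0205, 0.0255 and 0.0318), among 1119 genes and transcripts that did. That filter tests fewer than 26460, and the number is not given here, so no share stands beside these calls. With normexp, under the filter of the main fit, the same 3 genes passed, at 0.95, 1.89 and 1.13, among 1312 of the 26460 genes and transcripts.

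Day by day, the sh8 minus WT difference reached 2-fold for 0 of the 10 genes on day -2, where 10.3% of all genes and transcripts well above background in either line reached it, and for 1 on day 0, Per2, against 11.8%. On day +2 it reached 2-fold for 4 genes, against 19.6% of all. Nr1d1, Dbp and Per2 were higher in sh8 cells and Cry1 was lower. On day +4 it did so for 4 genes, against 14.8%, with Nr1d1, Dbp and Nr1d2 higher and Cry1 lower. These differences have 1 array on each side and no test. In a fit of the arrays of days +2 and +4 alone, 4 of the 9 clock genes well above background on all arrays passed: Nr1d1 at 2.31 (limma, adjusted p = 0.0301), Dbp at 1.62 (0.0374), Nr1d2 at 0.90 (0.0441) and Cry1 at -1.06 (0.0352). Per3, at 0.84, is not counted, since it was kept only through sh8 arrays. Of all 26460 genes and transcripts, 5185 passed in that fit. That count is not limited to those well above background on all arrays, so the shares are not alike. The fit of these 4 arrays leaves fewer residual degrees of freedom than the 3 of the main model, which limits what its adjusted p-values can show. In a fit of days -2 and 0 alone none of the 10, and no gene or transcript at all, passed in limma.

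**Figure D3:**
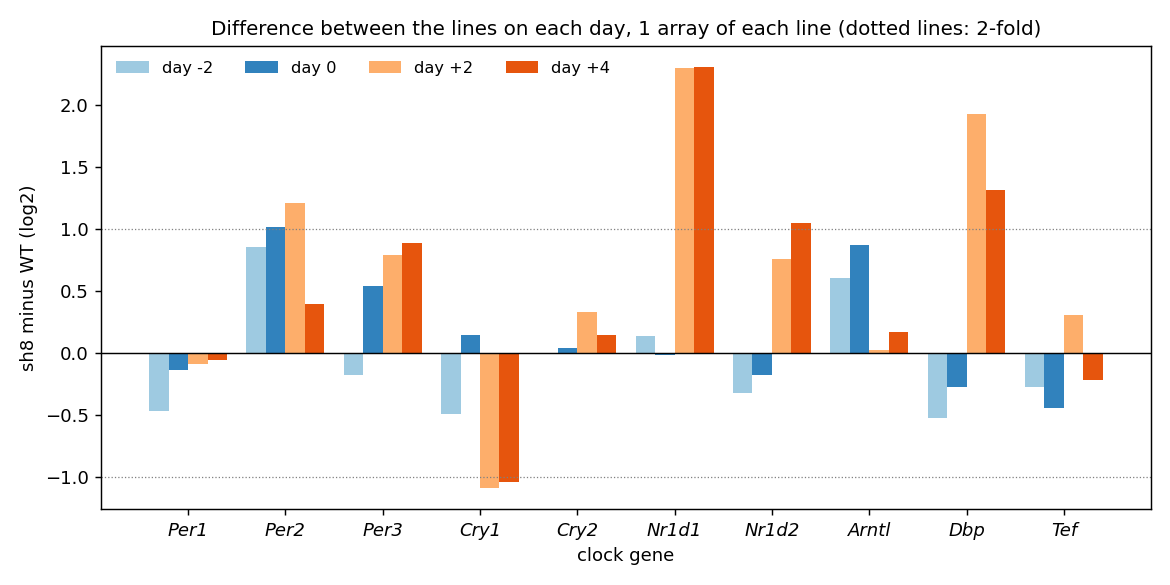
Difference of sh8 minus WT (log2) of each clock gene on days -2, 0, +2 and +4, with 1 array of each line for each bar and dotted lines at 2-fold. The bars of Nr1d1 and Dbp pass the upper dotted line on days +2 and +4 only, and those of Cry1 pass the lower one on the same days.

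Between neighbouring days of the same scan no clock gene passed. From day -2 to day 0, 0 of 26460 genes and transcripts passed in limma (6712, or 25.4%, were under 0.05 before adjustment), Per3 at 1.18 ± 0.29 and Tef at 0.71 ± 0.21 being the 2 clock genes under 0.05 before adjustment. Among the arrays of these days, Per3 was well above background only on that of sh8 cells on day 0. Its other levels are no more than bounds, so the value for Per3 supports nothing. From day +2 to day +4, 0 passed in limma (1437, or 5.43%, before adjustment, none of them a clock gene).

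Of 25 other genes of the clock, its output and its regulation, 24 were kept, all but Npas2, a relative of Clock. Compared with WT cells, 4 were higher in sh8 cells and 3 lower, with a median difference of -0.088 beside 0.13 for all genes and transcripts. The shares over all were 16.8% higher and 10.3% lower. Hlf, the third bZIP activator of the Dbp and Tef family, stood at -0.95, -0.44, -0.077 and -0.40 on days -2, 0, +2 and +4 in sh8 cells and at -2.86, -3.21, -2.50 and -2.55 in WT cells. No sh8 level overlapped a WT level, which held, in either direction, for 17.3% of all genes and transcripts. Hlf was higher in sh8 cells by 2.31 ± 0.17, or 4.97-fold (limma, adjusted p = 0.00852).

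Rora encodes an ROR activator, which opposes the REV-ERB proteins at Arntl. Rora stood at 0.0047, 1.08, 1.55 and 1.11 on the 4 days in sh8 cells and at -0.40, 0.20, -0.58 and -0.93 in WT cells. It was higher in sh8 cells by 1.37 ± 0.35 (limma, adjusted p = 0.0445), a call lost with quantile scaling (adjusted p = 0.0544). Prkaa2, a catalytic subunit of the kinase AMPK, was higher by 1.08 ± 0.11 (limma, adjusted p = 0.0115). Btrc, a ubiquitin ligase subunit that recognises PER proteins, was higher by 0.77 ± 0.19 (limma, adjusted p = 0.044), but its other probe differed by -0.38. Lower in sh8 cells were the deacetylase Sirt1, at -0.68 ± 0.099 (limma, adjusted p = 0.017), the kinase Gsk3b, at -0.60 ± 0.13 (limma, adjusted p = 0.0343), and Fbxw11, a relative of Btrc, at -0.45 ± 0.091 (limma, adjusted p = 0.0291). Of these 7 calls, those of Btrc, Gsk3b and Fbxw11 were also lost with quantile scaling (adjusted p = 0.0682, 0.0674 and 0.0565). When the 2 scans, not the days, were the blocks, those of Btrc and Fbxw11 were lost (limma, adjusted p = 0.0661 and 0.0507).

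**Figure D4:**
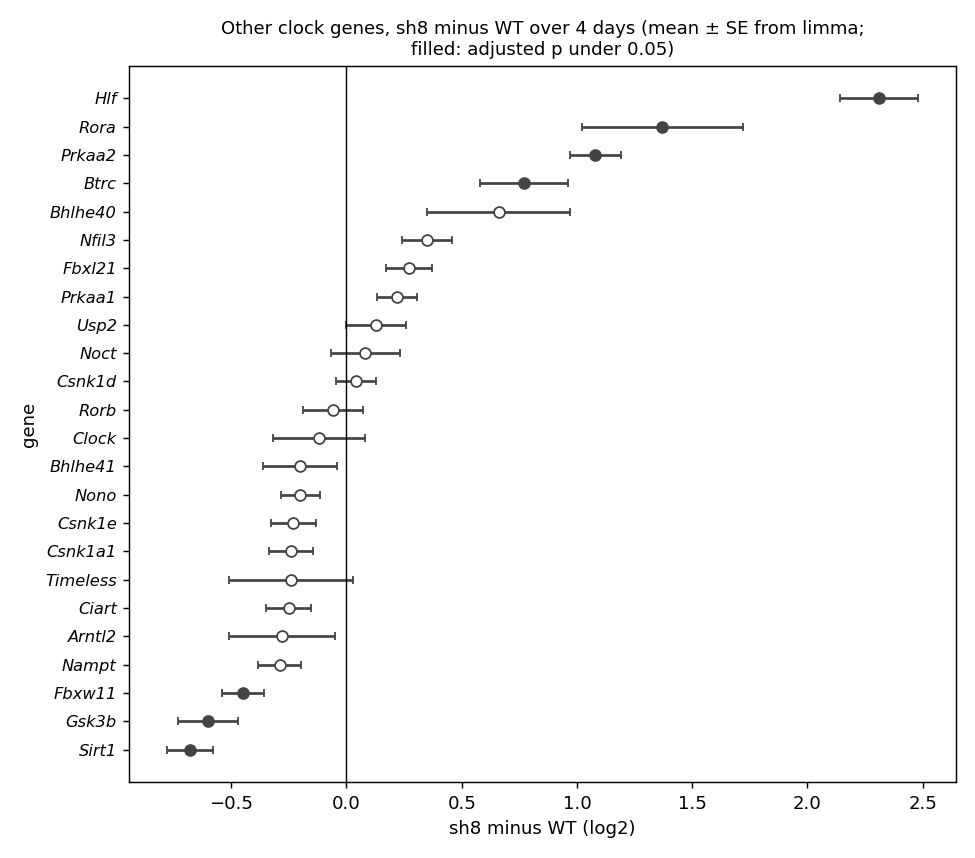
Difference of sh8 minus WT over the 4 days (log2, mean and standard error from limma) for the 24 other clock genes kept, with filled points for adjusted p under 0.05. Hlf lies farthest to the right at 2.31 and Sirt1 farthest to the left at -0.68.

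After induction, over both lines, 6 of the 24 rose and 1 fell, with a median of 0.086 beside 0.17 for all, of which 26.8% rose and 9.54% fell. Nfil3, the repressor that competes with DBP, TEF and HLF at D-boxes, stood at 2.61, 2.47, 4.20 and 4.37 on days -2, 0, +2 and +4 in sh8 cells and at 2.50, 2.13, 3.85 and 3.77 in WT cells. It rose by 1.62 ± 0.11 (limma, adjusted p = 0.00191), and all arrays after induction were above all arrays before it. Such a lack of overlap, in either direction, was seen for 23.8% of all genes and transcripts. Usp2, a clock-regulated deubiquitinase, rose by 1.61 ± 0.13 (limma, adjusted p = 0.00242), and Nampt, an enzyme of NAD synthesis, by 0.73 (limma, adjusted p = 0.00603). Rorb, another ROR gene, rose by 1.68 (limma, adjusted p = 0.00217), while its second probe differed by 0.033. Csnk1a1 and Csnk1e, which encode casein kinases, also rose, Csnk1e with a second probe at -0.27, and Sirt1 fell. The calls of Nfil3, Usp2 and Rorb held with any 1 day left out, and those of the other 4 were lost without day +4.

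Within sh8 cells 6 of the 24 other clock genes rose after induction and 1 fell, against 21.3% and 8.19% of all genes and transcripts. Within WT cells 6 rose and 4 fell, against 20.5% and 10.2%. In sh8 cells the change after induction was 0.18 ± 0.11 for Clock, the partner of BMAL1, and 0.29 ± 0.17 and -0.26 ± 0.15 for Bhlhe40 and Bhlhe41, which encode the DEC repressors of the loop. None of these passed (limma, adjusted p = 0.294, 0.252 and 0.251). In WT cells Clock fell by 0.63 ± 0.11, Bhlhe40 by 0.98 ± 0.17 and Bhlhe41 by 0.80 ± 0.15 (limma, adjusted p = 0.0303, 0.0273 and 0.0316). Rora rose by 0.79 ± 0.16 in sh8 cells (limma, adjusted p = 0.0376) and differed by -0.66 ± 0.16 in WT cells (limma, adjusted p = 0.0512). The difference between the lines did not pass its own test for any of the 24 genes, Bhlhe41 included. For Rora, Bhlhe40 and Clock that test gave adjusted p = 0.129, 0.143 and 0.153 (limma).

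Genes known to respond to the agents in the medium were read beside the clock genes. Of 12 glucocorticoid targets 9 rose after induction over both lines and none fell, with a median of 1.05, where over all genes and transcripts 26.8% rose, 9.54% fell and the median was 0.17. Cdkn1c, 1 of the 12, was kept only through the arrays of days +2 and +4. It was well above background on no earlier array, so a rise of Cdkn1c supports nothing. Fkbp5, which encodes a co-chaperone of the glucocorticoid receptor, rose by 3.00 ± 0.22 in sh8 cells and by 2.67 ± 0.22 in WT cells (limma, adjusted p = 0.0106 and 0.01). Of 12 measured cAMP targets 5 rose and 1 fell, with a median of 0.013. The one that fell was Fos, at 0.42, -3.85, -3.13 and -3.63 on days -2, 0, +2 and +4 in sh8 cells and at 1.91, -3.52, -2.18 and -3.31 in WT cells. Its levels were high on day -2 alone, and those of both later days were above that of day 0. Sik1, a kinase gene induced by cAMP, rose by 1.11 ± 0.15 in sh8 cells and by 0.94 ± 0.15 in WT cells (limma, adjusted p = 0.0204 and 0.0242). In neither list did any gene pass the test of a different change in the 2 lines in limma, with 3 of 12 under 0.05 before adjustment in each, against 19.9% of all. Of 9 fat cell markers 8 rose after induction over both lines. Adipoq, 1 of the 9, was also kept only through the arrays of days +2 and +4, so a rise of Adipoq supports nothing. Over the 4 days 3 of the 9 fat cell markers were called lower in sh8 cells than in WT cells, against 10.3% of all, and 0 higher. Cebpa, Cidec and Lipe had higher means in sh8 cells that did not pass in limma. For Cidec the mean was -4.86 in sh8 and -5.66 in WT, while its other probe stood at -4.41 and -0.89 on day +4. The log2 of their summed signal reached 4.75 in sh8 cells and 6.14 in WT cells on day +4. Of 5 macrophage markers 4 were higher in sh8 cells, against 16.8% of all, with the log2 of their sum from 2.56 to 2.82 in sh8 and from 2.15 to 2.38 in WT. Of 3 endothelial markers 2, Pecam1 and Kdr, were higher in sh8 cells, with the log2 of the sum of all 3 from 0.60 to 0.91 in sh8 and from 0.00074 to 0.31 in WT. Like Sftpc, the macrophage gene Lyz2 and the endothelial gene Cdh5 were well above background on every array of days +2 and +4 and on none before. So were further probes of Adgre1, Csf1r and Kdr, while the kept probes of the other markers in these 2 lists were well above background on all 8 arrays. The part of these differences in the clock genes' values was not tested.

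For the 9 clock genes well above background on all 8 arrays, thus without Per3, the genes with the most similar profile were sought among 13782 genes, as the root mean square difference between profiles centred on their own means. For Nr1d1 these were Col7a1 (0.29), Lrrk2 (0.30) and Peak1 (0.36), against a standard deviation of 0.91 for Nr1d1 itself. For Dbp they were Xkrx (0.20), Gm14305 (0.24) and Zfp971 (0.26), against 0.88. For Nr1d2 they were Rb1cc1 (0.11), Trip11 (0.12) and Nktr (0.12), against 0.49, and for Per1 they were Snapc1 (0.10), Sod2 (0.13) and Krt6b (0.13), against 0.47. None of these 9 was among the 3 nearest of another.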

How the data were processed

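RNA of 8 samples was measured on one-colour Agilent arrays, although the series text names another maker. Per the file headers, the authors read the scans with Agilent Feature Extraction, version 11.0.1.1 in the submitters' processing notes, and deposited a processed intensity for every spot. They also deposited a table on the log2 scale, whose columns had a median of 6.39 and correlated best with their own array (r from 0.9936 to 0.9998), uncentred and in the same direction. The sources used here do not say how it was made. That table served as an alternative.

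Of 44397 spots, 1377 controls were left out, repeat spots were averaged into 39429 probes, and 46 probes with outlier flags were dropped. No spot was saturated. Of the 39383 probes left, 27207 received a symbol through a RefSeq table of GRCm38.p6 and 12176 did not. Values were log2 intensities minus the array's 75th percentile, which ranged from 759.9 to 1239 intensity units. Probes well above background on at least 2 of 8 arrays were kept, and the brightest probe stood for its gene. The number of arrays limits the precision.

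Tests used limma 3.58.1 (lmFit, eBayes) in R 4.3.3, where tables were handled by data.table (version 1.17.8), over all 8 arrays and all genes, with Benjamini-Hochberg adjustment and 0.05 as threshold. The model held day and line (3 residual degrees of freedom), and a second added line by induced period (2). Only the fit of sh8 minus WT was run on simulated data, and its outcome is not reported here. The fits of changes after induction were not run on simulated data. Alternatives were quantile scaling, normexp (offset 50, on median signals, since the files hold no mean signal), the authors' table, other filters and probes, the scan as a block, each scan alone, and each day left out.

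All 10 members are named, as are genes of a list of other clock genes by their calls. Some genes of that list are not reported here. The members and lists were chosen with earlier results of these data known, and the changes within 1 line were added after the data were seen.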

Additional observations from a re-analysis of the deposited data

Results flagged for a closer look

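In 3 of the genes named, both sh8 arrays after induction were above both sh8 arrays before it, while both WT arrays after induction were below both WT arrays before it. The same pattern, in this direction, was met by 470 genes and transcripts, or 1.78% of all. For Nr1d1 the change in sh8 minus that in WT was 2.24 on the log2 scale (limma, adjusted p = 0.121). For Rora, an ROR activator gene, it was 1.45 (limma, adjusted p = 0.129), and for Cry2 it was 0.22 (limma, adjusted p = 0.465). In sh8 cells alone Cry2 changed by only 0.034 (limma, adjusted p = 0.825), its level being 2.60 as rounded on each of days 0, +2 and +4. None of the 3 passed the test of the difference.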

How the results depend on the processing

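Every array is labelled replicate 1, so there was no replicate number to use as a block. The main model instead paired the lines by day. Of the 10 clock genes, 1 passed for sh8 minus WT, against 5 in the arrays of days +2 and +4 alone, Per3 included, and 0 in those of days -2 and 0 alone. With 1 day left out, 0 to 1 passed, and the 1 passing without day -2 was Per3. Per3 was kept only through the sh8 arrays, so its passes for sh8 minus WT support nothing. Over all genes and transcripts, 7155 passed for sh8 minus WT, against 5185 in days +2 and +4 alone and 0 in days -2 and 0 alone. There were 79 without day 0 and 0 without day +2 or without day +4. From day -2 to day 0, 0 clock genes passed, against 1 with normexp, and over all genes 0 passed, against 3529 with normexp, 10 in the authors' table and 1669 with only probes well above background on all 8 arrays. From day 0 to day +2, 1 passed, against 0 with quantile scaling, in the authors' table and without a filter, and 0 to 1 with a day left out. Over all genes 3145 passed there, against 1950, 1963 and 1034 with quantile scaling, in the authors' table and without day +4. After induction over both lines, 1 passed, against 2 with quantile scaling, normexp and the authors' table, and 1 to 2 with a day left out. Over all genes 9606 passed there, against 5144 without day -2 and 2837 without day +4. The added one was Per3, at -0.72 with quantile scaling and 0.22 with normexp. For the difference of that change between the lines, 0 passed, against 3 with normexp and 3 with only probes well above background on all 8 arrays, with 1312 and 1119 genes and transcripts in place of 0. Within sh8 cells 3 passed, 0 to 2 with a day left out, and over all genes 7814 passed, against 12248 with normexp, 2066 without day -2 and 0 without day +2 or without day +4. Within WT cells 5 passed, 0 to 3 with a day left out, and over all genes 8137 passed, against 4384 without day -2 and 0 without day +2 or without day +4. The causes of these moves were not tested, though a day left out leaves fewer arrays.

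Of the log2 changes of named genes under the alternatives, 841 kept direction and side of the threshold, 161 lost the call, 20 gained it and 39 changed sign, and no change that passed the main test passed with the opposite sign. For sh8 minus WT the sign turned for Nr1d2 (-0.25) and Dbp (-0.39) on days -2 and 0 alone, for Tef (0.048) on days +2 and +4 alone, and for Btrc with its other probe (-0.38). The second Rorb probe gave -0.043 from day 0 to day +2 and -0.16 in WT cells after induction, and the second Csnk1e probe -0.27 after induction over both lines. With normexp, Per2 (0.0077), Per3 (0.22) and Nr1d1 (0.12) turned after induction over both lines, and Per2 (0.087) and Per3 (0.19) in WT cells. With quantile scaling, Per3 (-0.46) and Nr1d2 (0.013) turned in sh8 cells and Cry1 (-0.012) in WT cells, and the authors' table gave -0.46, 0.013 and -0.011. With a day left out, the sign turned over both lines for Per2 (-0.37 to 0.15), Per3 (-0.67 to 0.51), Nr1d1 (-0.43 to 0.0014) and Tef (-0.57 to 0.14). It turned in sh8 cells for Per2 (-0.50 to 0.15), Per3 (-0.52 to 1.02), Nr1d2 (-0.22 to 0.19), Arntl (-0.028 to 0.063), Dbp (-0.42 to 0.77) and Tef (-0.33 to 0.30), in WT cells for Per2 (-0.27 to 0.17) and Cry1 (-0.22 to 0.31), and in the difference between the lines for Per2 (-0.53 to 0.28). Signal over background limits Per3 most, since it was not well above background on any WT array.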
